A study of Mus musculus with 4 samples.

Results

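The 10 genes followed here mark endothelial cells, the cells that line blood vessels, and were measured in the middle ear of mice exposed to diesel exhaust particles (DEPs). They are Pecam1, Cdh5, Kdr, Tek, Tie1, Vwf, Emcn, Flt1, Esam and Plvap. Their probes were found by matching the RefSeq accession that each probe targets to these 10 symbols, which gave 12 of the 39429 probes on the array, 2 each for Kdr and Plvap and 1 for every other gene. Gene expression was measured on 4 two-colour arrays. On each, red Cy5 marked an extract whose source is named DEP_ear (below, the DEP channel) and green Cy3 one named CON_ear (the control channel). Per the study's methods, 9 male BALB/c mice aged 6 to 10 weeks were used, DEP inhalation lasted 1 h a day over 5 days, and temporal bone areas with the middle ear were taken on day 14. The sources used here do not state what the control mice inhaled or how many mice stand behind an extract. Both extracts of an array are mixed tissue, so fewer endothelial cells and less RNA per endothelial cell cannot be told apart.

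Endothelial cells form the inner wall of every vessel and control what leaves the blood. Their growth and survival depend on vascular endothelial growth factor (VEGF), which signals through Kdr (VEGF receptor 2) and is also bound by Flt1 (VEGF receptor 1), a receptor with weak signalling that can act as a decoy. Angiopoietins signal through Tek, also called Tie2, with Tie1 as its partner receptor, and steady the resting vessel. In the mucosa of the inflamed middle ear, vessels become wide and leaky, and leukocytes leave the blood through the junctions between endothelial cells.

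The RefSeq promoter table of build GRCm38.p6 held 5 of the 10 genes, Flt1, Kdr, Tek, Tie1 and Emcn. The 250 bases before the start of the 4 receptor genes are shown here, because the largest and the smallest ratios among the endothelial genes were found within these receptors. Capitals mark GGAA or its reverse complement TTCC, the core letters bound by ETS factors such as Erg and Fli1, searched on both strands.

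Flt1, chr5:147726012-147726261, strand minus: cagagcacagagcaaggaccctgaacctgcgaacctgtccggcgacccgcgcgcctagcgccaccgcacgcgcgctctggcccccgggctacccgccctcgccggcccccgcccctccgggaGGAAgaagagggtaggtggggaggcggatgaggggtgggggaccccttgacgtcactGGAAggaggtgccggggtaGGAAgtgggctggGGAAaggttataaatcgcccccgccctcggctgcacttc

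Kdr, chr5:75978456-75978705, strand minus: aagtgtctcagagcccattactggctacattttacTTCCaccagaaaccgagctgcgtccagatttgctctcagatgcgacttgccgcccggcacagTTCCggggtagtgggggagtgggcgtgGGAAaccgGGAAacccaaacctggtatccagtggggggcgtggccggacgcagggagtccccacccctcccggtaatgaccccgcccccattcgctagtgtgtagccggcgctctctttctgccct

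Tek, chr4:94739039-94739288, strand plus: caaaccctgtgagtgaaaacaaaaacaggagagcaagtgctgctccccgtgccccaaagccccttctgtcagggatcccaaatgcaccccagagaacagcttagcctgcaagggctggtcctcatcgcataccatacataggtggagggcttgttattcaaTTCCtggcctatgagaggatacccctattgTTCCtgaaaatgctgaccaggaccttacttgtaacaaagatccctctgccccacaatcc

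Tie1, chr4:118489850-118490099, strand minus: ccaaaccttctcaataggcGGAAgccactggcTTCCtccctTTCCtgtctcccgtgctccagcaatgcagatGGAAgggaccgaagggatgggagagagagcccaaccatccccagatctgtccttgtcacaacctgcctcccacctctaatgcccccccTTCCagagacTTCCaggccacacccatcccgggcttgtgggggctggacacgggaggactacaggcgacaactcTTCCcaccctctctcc

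The letters GGAA occurred 4 times in the Flt1 window, 4 in that of Kdr, 2 in that of Tek and 7 in that of Tie1. They are common, since 93.4% of the 32851 promoters of this length in the table hold them, with a median of 3. At least as many as in Tie1 were found in 3.82% of these promoters. The VEGF receptor windows were richer in the dinucleotide CG than those of the angiopoietin receptors. Flt1 had 23 and Kdr 16, against 6 in Tie1 and 2 in Tek and a median of 6 over all promoters. The GC content was 70.4% for Flt1, 61.6% for Kdr, 60.4% for Tie1 and 51.2% for Tek.

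On every array, both channels of all 12 probes were well above background and none was saturated, so that a fold could be measured for each. Of all probes, 56.9% were measured as fully. Ratios are given on the log2 scale, DEP channel over control channel, and come from the deposited dye-normalized signals. Which channel holds which group rests on the source names in the labels, no array has the dyes exchanged, and exposure cannot be told apart from a dye bias of a transcript. The labels list treatments inconsistently by channel. The direction used here opposes the one that the gene lists of the study have. Of 25 genes listed there as upregulated that could be tested, 24 had a mean ratio below 0, and of 11 listed as downregulated, 9 had one above 0. By qRT-PCR, the study reports Chrm1 and Epo as increased and Esr1, Sos1, Cd4 and Ifna1 as decreased, the directions of its lists.

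Between the DEP and control channels, the endothelial genes differed little. The mean ratios of the 10 genes, each by its brightest probe, lay between -0.52 and 0.04 with a median of -0.14, beside a median of 0.04 over the 14297 genes measured as fully. By mean ratio, 7 genes were lower and 3 higher in the DEP channel, beside 46.9% of all probes tested and 46.8% of those measured as fully with a mean ratio below 0, but with normexp background correction and median centring of the arrays 3 were lower and 7 higher. That setting moved the median of the fully measured genes to 0.28. Set against the median of these genes, 9 of the 10 endothelial genes were below it in both settings, but 8 without array 1 and 7 without array 3, where the gap between the medians went from -0.18 to -0.07. In limma's moderated test, two-sided and with Benjamini-Hochberg adjustment over 31577 probes, 0 of the 12 probes had an adjusted p under 0.05, and the same held for 0% of all probes tested. Their adjusted p lay between 0.257 and 0.974. An unadjusted p under 0.05 was found for 1 of the 12 probes, the brighter one for Kdr, against 12.6% of all probes measured as fully and 18.6% of all probes tested. By direction, these shares were 6.32% lower and 6.25% higher in the DEP channel among the former and 8.96% lower and 9.6% higher among the latter. An ordinary test without moderation found 0 adjusted calls as well. For 9 of the 10 genes the 95% interval of the ratio excluded a change of 2-fold in either direction, which was so for 82% of fully measured genes. The exception was Flt1.

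**Figure D1:**
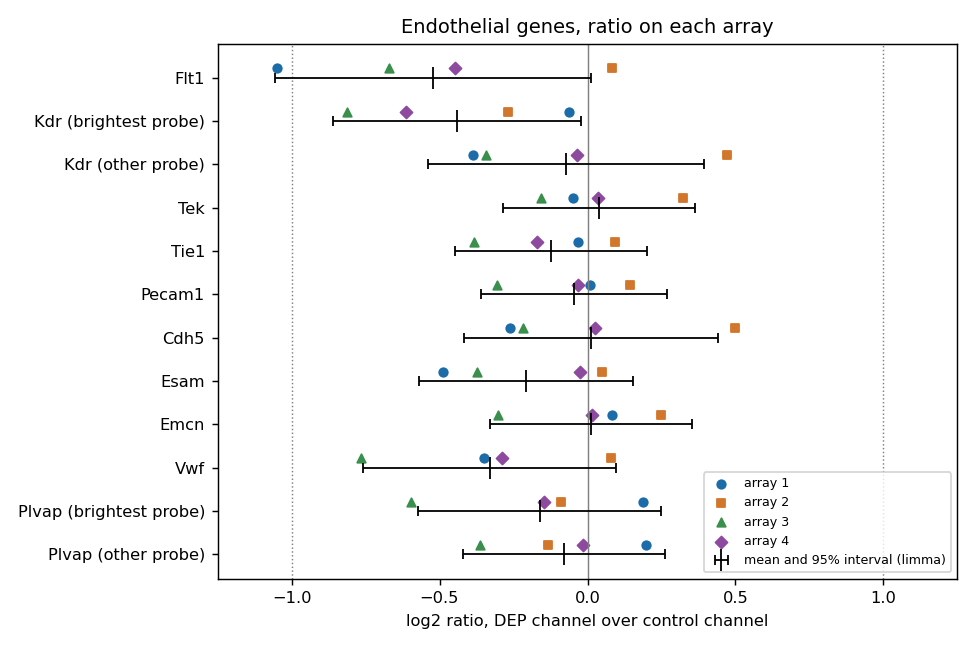
Log2 ratio of the DEP channel over the control channel for the 12 probes of the 10 endothelial genes (horizontal axis), with a symbol for each of the 4 arrays, the mean and limma's 95% interval as bars, and dotted lines at 2-fold. All 12 probes lie below 0 on array 3 in these deposited ratios, and only the interval of Flt1 reaches past the 2-fold line.

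By the brightest probe of each gene, the VEGF receptors had the lowest mean ratios, which would be the highest if the channels were exchanged. With the mean over its probes, Kdr was at -0.26 and above Vwf at -0.33. Flt1 had signals of 2341, 1801, 2126 and 1727 in the DEP channel of arrays 1 to 4. In the control channel they were 4847, 1702, 3387 and 2354. The DEP signals were thus close together, while the control signals ranged widely, with array 1 highest and array 2 lowest. The log2 ratios were -1.05, 0.08, -0.67 and -0.45. Their mean of -0.52 ± 0.47 (SD, n = 4 arrays; standard error 0.21, 95% interval -1.06 to 0.01) had an adjusted p of 0.278 from limma. This is 1.44-fold lower in the DEP channel, on 3 of 4 arrays, and 7.34% of fully measured genes had a lower mean ratio. The ratio stayed below 0 in every alternative run, but was -0.09 with normexp and median centring.

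Kdr, the main signalling receptor for VEGF, is measured by 2 probes that target the same accession. For the brighter one the signals were 5081, 3534, 3375 and 3589 in the DEP channel and 5308, 4262, 5925 and 5491 in the control channel, which is lower in DEP on 4 of 4 arrays. Among probes measured as fully, 11.3% were lower on all 4 arrays and 14.7% higher, beside 12.1% and 16.4% of all probes tested, and 1 and 0 of the 12 endothelial probes. The ratios were -0.06, -0.27, -0.81 and -0.61, with a mean of -0.44 ± 0.34 (SD, n = 4 arrays; standard error 0.16, limma's adjusted p = 0.257). With normexp and median centring this mean was -0.07. The dimmer probe gave another result. Its signals were 1096, 974, 1211 and 1018 in the DEP channel and 1431, 703, 1539 and 1040 in the control channel, and its ratios of -0.39, 0.47, -0.34 and -0.03 averaged -0.07 ± 0.40 (limma's adjusted p = 0.844).

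The dimmer Kdr probe is printed in 10 spots on every array, which gives the spread of repeated spots of 1 extract pair. After removal of outlier spots, 8 or 9 spots per array remained. The SD between spots was 0.04 on array 1, 0.05 on array 2, 0.02 on array 3 and 0.05 on array 4, close to the median of 0.04 over the 305 fully measured probes printed in this way. Between arrays the SD was 0.40. The spots of an array share their extracts, so the SD between spots covers reading error only. The 2 probes differed by 0.32, -0.74, -0.47 and -0.58 on arrays 1 to 4, brighter minus dimmer. The brighter probe has 1 spot, so its own reading error is not known. Their means differed by 0.37, and 17% of the 3326 genes with 2 or more fully measured probes had a larger difference. Where on the transcript each probe lies was not analysed here.

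**Figure D2:**
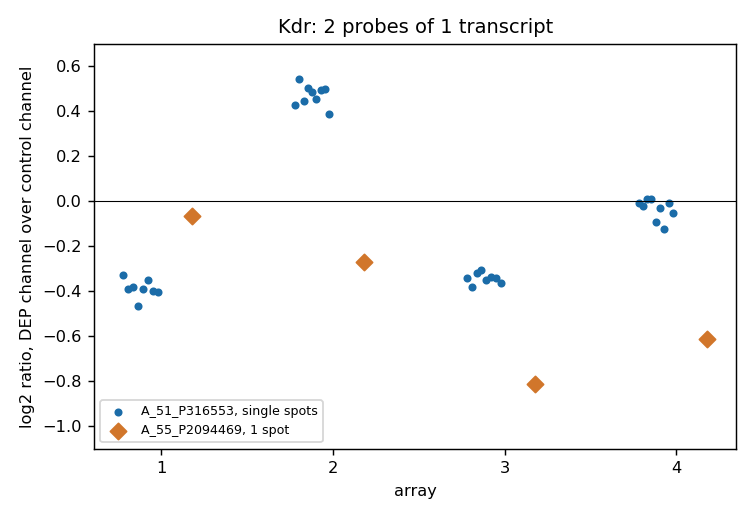
Log2 ratio of the 2 Kdr probes on each array (vertical axis, DEP channel over control channel), with small points for the single spots of the dimmer probe and diamonds for the brighter probe, which has 1 spot. The spots of 1 array lie close together, while the probes differ from each other on every array and in opposite order on array 1 and on arrays 2 to 4.

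The angiopoietin receptors had ratios near 0. Tek had signals of 209, 149, 167 and 143 in the DEP channel against 216, 119, 187 and 140 in the control channel. Its ratios of -0.05, 0.32, -0.16 and 0.04 averaged 0.04 ± 0.21 (SD, n = 4 arrays; standard error 0.13, limma's adjusted p = 0.885), and the 95% interval ran from -0.29 to 0.36. Tie1 had signals of 419, 299, 309 and 278 in the DEP channel and 428, 280, 403 and 313 in the control channel. Its ratios were -0.03, 0.09, -0.38 and -0.17, with a mean of -0.12 ± 0.20 (standard error 0.13, limma's adjusted p = 0.615). On array 2 both receptors were above 0 and on array 3 both were below it. The 95% interval of Tie1 ran from -0.45 to 0.20. Its mean was -0.04 without array 3 and -0.02 with normexp and median centring, but -0.21 with normexp and loess.

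The genes of endothelial contacts and surface were measured next. Pecam1 (CD31), which joins endothelial cells and guides leukocytes between them, had signals of 385, 256, 233 and 232 in the DEP channel and 382, 232, 288 and 237 in the control channel. Its ratios of 0.01, 0.14, -0.31 and -0.03 averaged -0.05 ± 0.19 (SD, n = 4 arrays; limma's adjusted p = 0.853), with an interval from -0.36 to 0.27. Pecam1 had the smallest spread between arrays of the 10 genes. Cdh5, the VE-cadherin of the adherens junction, had 1589, 1411, 1492 and 1286 in the DEP channel and 1903, 999, 1735 and 1263 in the control channel. Its DEP signals were again closer together than its control signals, and the ratios of -0.26, 0.50, -0.22 and 0.03 cancelled to a mean of 0.01 ± 0.35 (limma's adjusted p = 0.974). With normexp and median centring the mean of Cdh5 was 0.34 (limma's adjusted p = 0.087), higher in the DEP channel. It lay 0.06 above the median of the fully measured genes in that setting. There Cdh5, in place of Kdr, was the 1 member with an unadjusted p under 0.05, beside 38.6% of all probes.

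Esam, an adhesion molecule of the endothelial tight junction that platelets also carry, had signals of 1039, 624, 683 and 576 in the DEP channel and 1457, 603, 884 and 586 in the control channel. Its ratios were -0.49, 0.05, -0.37 and -0.02, with a mean of -0.21 ± 0.26 (SD, n = 4 arrays; limma's adjusted p = 0.459). Emcn encodes endomucin, a sialomucin of the surface of capillaries and veins, which is also used to mark vessels in bone. It had 542, 413, 370 and 390 in the DEP channel and 511, 348, 457 and 386 in the control channel, and ratios of 0.08, 0.25, -0.30 and 0.01 that averaged 0.01 ± 0.23 (limma's adjusted p = 0.969). Esam was lower in the DEP channel on 3 of 4 arrays and Emcn on 1. With normexp and median centring the mean of Esam was 0.09 and that of Emcn 0.13.

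Vwf and Plvap mark secretion and permeability. Vwf encodes von Willebrand factor, the clotting protein stored in endothelial cells and platelets. Its signals were 7200, 6201, 5028 and 5907 in the DEP channel and 9172, 5868, 8550 and 7214 in the control channel, lower in DEP on 3 of 4 arrays. The ratios of -0.35, 0.08, -0.77 and -0.29 averaged -0.33 ± 0.35 (SD, n = 4 arrays; standard error 0.17, limma's adjusted p = 0.347), but the mean turned to 0.13 with normexp and median centring. Plvap forms the diaphragms of fenestrated capillaries, and both of its probes were measured as fully. The brighter one had 3713, 2588, 2118 and 2491 in the DEP channel and 3261, 2756, 3205 and 2758 in the control channel. Its ratios were 0.19, -0.09, -0.60 and -0.15, with a mean of -0.16 ± 0.33 (limma's adjusted p = 0.602). The dimmer one had ratios of 0.20, -0.13, -0.36 and -0.02 and a mean of -0.08 ± 0.23 (limma's adjusted p = 0.764). Both Plvap probes were highest on array 1 and lowest on array 3. Their means differed by 0.08, a difference that 70.7% of genes with several probes exceeded.

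**Figure D3:**
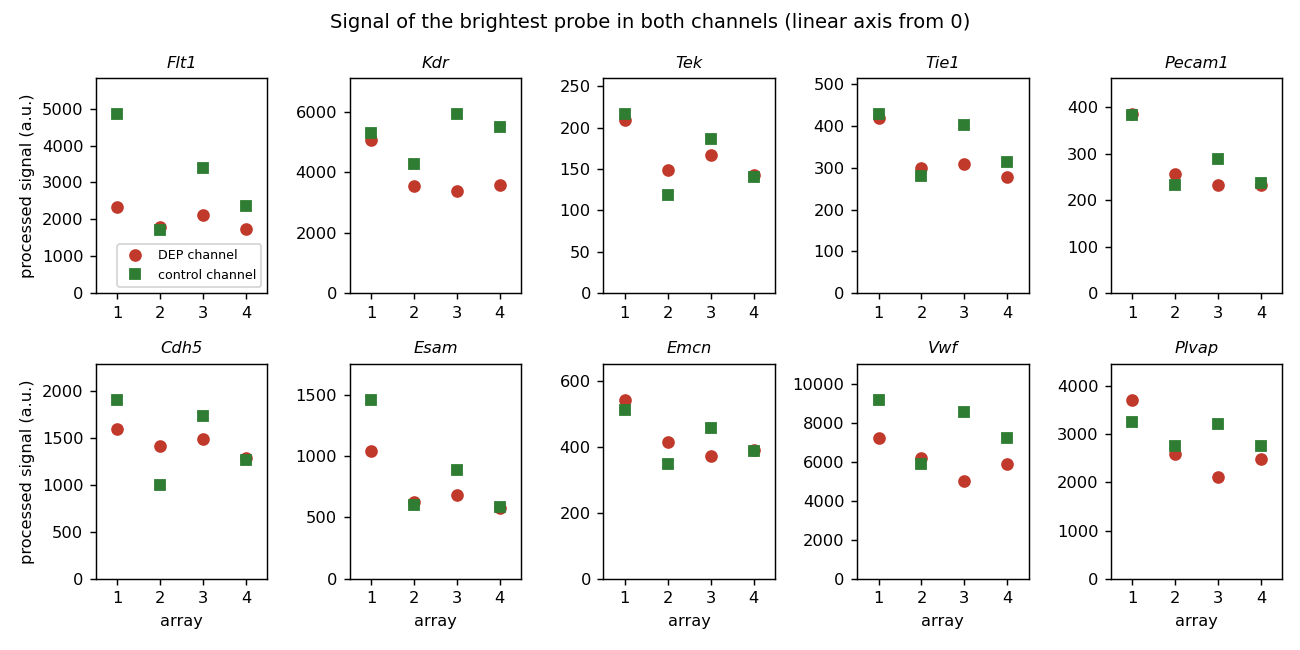
Processed signal of the brightest probe of each of the 10 genes (vertical axes, arbitrary units, linear from 0) in the DEP and control channels of the 4 arrays. The Flt1 control signals range from 1702 to 4847 and its DEP signals from 1727 to 2341.

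The arrays differed from each other. The SD of the 4 array medians was 0.20, and the SD over the 10 genes within an array was 0.36, 0.21, 0.23 and 0.22 on arrays 1 to 4. On array 3 all 10 genes were lower in the DEP channel, with a median of -0.38, against 48.5% of fully measured genes. Only 2 of the 10 lay between the first and the third quartile of all fully measured genes there, -0.23 and 0.24. On array 2, 8 of 10 were higher, with a median of 0.09, and 38.8% of all fully measured genes were lower. The medians on arrays 1 and 4 were -0.06 and -0.09, with 7 genes lower on each, beside 52.4% and 43.8% of the fully measured genes. On those arrays 8 and 7 of the 10 lay between the quartiles of all genes. Without array 3 the median of the 10 mean ratios was -0.03, and without array 2 it was -0.19 with 0 of the 10 above 0.

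**Figure D4:**
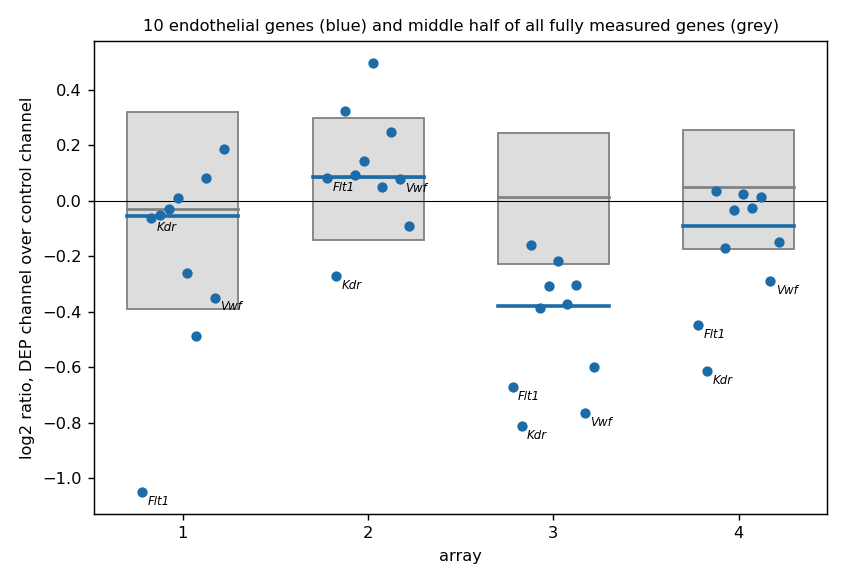
Log2 ratio of the 10 endothelial genes (blue points, with their median as a blue line) on each array, over a grey box from the first to the third quartile of the 14297 fully measured genes with its median. The blue median is -0.06, 0.09, -0.38 and -0.09 on arrays 1 to 4, and Flt1, Kdr and Vwf lie at or near the lower edge of the points on arrays 3 and 4.

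Within an array, the members can be set against each other, which takes out any part of the ratio that they share. The difference from the median of the other 9 genes averaged -0.43 ± 0.42 (SD, n = 4 arrays) for Flt1, -0.35 ± 0.24 for the brighter probe of Kdr and -0.24 ± 0.16 for Vwf. These 3 genes were below the median of the other 9 on 4 of 4 arrays, though not below each of them, and on 1 array each the difference was -0.01 (array 2 for Flt1 and Vwf, array 1 for Kdr). The dimmer Kdr probe, at 0.47 on array 2, was not low there. Above that median on 4 of 4 arrays were Tek with a mean difference of 0.17 ± 0.10 (SD, n = 4 arrays), Emcn with 0.14 ± 0.04 and Pecam1 with 0.08 ± 0.02. The order was looked at after the ratios were known and was not tested. An exact sign-flip test of 4 differences, two-sided, cannot give a p below 0.125. The difference Flt1 minus Cdh5 was -0.79, -0.42, -0.45 and -0.47 on arrays 1 to 4, the steadiest of the pairs compared that involve Flt1.

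After centring, the members varied more in the control channel. Each channel of an array was centred on its median over fully measured probes, and the SD of the log2 signals over the 4 arrays was taken for each member. This SD was larger in the control channel for 10 of the 10 genes. Its median over the members was 0.14 in the DEP channel and 0.35 in the control channel, beside 0.19 and 0.22 over all fully measured probes, of which 61.4% had the larger SD in the control channel. The largest control SD was that of Flt1, 0.55, against 0.23 in its DEP channel. Without the centring, the highest signal over the lowest was larger in the control channel for 7 of the 10, and larger in the DEP channel for Plvap (1.75 against 1.18), Kdr (1.51 against 1.39) and Pecam1 (1.66 against 1.65). As the groups are bound to the dyes, a wider spread of the control extracts and of the green dye cannot be told apart, and if the channels were exchanged the wider spread would be that of the DEP extracts.

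Lists of other vessel genes gave the setting for these values. Over 7 lists, for the VEGF and angiopoietin system, other endothelial genes, endothelial transcription factors, the blood-brain barrier, lymphatic vessels, pericytes and smooth muscle, and megakaryocytes and platelets, 83 of 85 genes were tested. An adjusted p under 0.05 was found for 0 of them in limma's moderated test and for 0 in the ordinary test. An unadjusted p under 0.05 was found for 6, against 12.6% of fully measured probes and 18.6% of all probes tested. Lower in the DEP channel among the 6 were Cldn5, Eng and S1pr1, and higher were Lyve1, Vegfd and Angpt4. S1pr1, Vegfd and Angpt4 are named because of these values.

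Cldn5, the claudin that seals the tight junctions of endothelial cells and is most abundant at the blood-brain barrier, stood apart. It is measured by 1 probe (A_51_P189814, targeting NM_013805) with signals of 2089.5, 1480.5, 1703 and 1458 in the DEP channel and 3857, 2604, 3570 and 2582 in the control channel. The ratios of -0.88, -0.81, -1.07 and -0.82 were nearly the same on every array. Their mean of -0.90 ± 0.12 (SD, n = 4 arrays; standard error 0.11, 95% interval -1.17 to -0.62) is 1.86-fold lower in the DEP channel, with an adjusted p of 0.104 from limma. Of the 14297 fully measured genes, 1 (Alms1, adjusted p = 0.0922) had a smaller unadjusted p. The ratio of Cldn5 stayed below 0 in every alternative run, between -0.93 and -0.49, with an adjusted p from 0.034 with normexp and median centring to 0.365 without array 2. With normexp and median centring, 10.4% of all probes had an adjusted p under 0.05. The array-to-array SD of Cldn5, 0.12, was below those of all 10 endothelial members, of which the lowest was 0.19 for Pecam1.

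Among the other endothelial genes, Eng, a co-receptor for transforming growth factor beta, had -0.34 ± 0.18 (limma's adjusted p = 0.249), lower on 4 of 4 arrays. S1pr1, the sphingosine 1-phosphate receptor that tightens junctions, had -0.49 ± 0.29 (adjusted p = 0.209), also lower on 4 of 4. Nos3, the endothelial nitric oxide synthase, had 0.12 ± 0.44, Egfl7 -0.06 ± 0.31 and Cd34 0.08 ± 0.29, with adjusted p values of 0.766, 0.846 and 0.784. With normexp and median centring Eng was at -0.07, S1pr1 at -0.21 and Cd34 at 0.53, the last with an adjusted p of 0.041 from limma. In that setting 10.4% of all probes had an adjusted p under 0.05, and the median of fully measured genes was 0.28. The list of 28 genes had a median of 0.04, with 15 above and 13 below 0. Its medians by array were -0.16, 0.23, -0.21 and 0.22, lowest on array 3 like that of the 10 members. It was higher than the members on array 4, where 7 of the 10 members and 11 of these 28 genes were below 0.

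Of the 12 genes for ligands and receptors of VEGF and angiopoietin, 8 were below and 4 above 0, with a median of -0.03. Vegfa, the ligand of Kdr and Flt1, had -0.01 ± 0.23 (SD, n = 4 arrays; limma's adjusted p = 0.984). The Tek agonist Angpt1 had 0.12 ± 0.59 (adjusted p = 0.815) and Angpt2, which can oppose it, -0.14 ± 0.40 (adjusted p = 0.688). Nrp1, a co-receptor for VEGF, had 0.25 ± 0.38 (adjusted p = 0.477), and Ptprb, the phosphatase that acts on Tek and Cdh5, had -0.15 ± 0.48 (adjusted p = 0.712). The ligands Vegfd, at 0.48 ± 0.39 (adjusted p = 0.264), and Angpt4, at 0.47 ± 0.09 (adjusted p = 0.153), were above 0 on 4 of 4 arrays. With normexp and loess they were at 0.30 and 0.25, and without array 1 Vegfd was at 0.29.

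The 12 transcription factors had a median of 0.03. Erg, an ETS factor of endothelial identity, had ratios of -0.45, 0.05, -0.78 and -0.43 and a mean of -0.40 ± 0.34 (SD, n = 4 arrays; limma's adjusted p = 0.283), but 0.16 as the mean over its probes. Fli1, a related factor that leukocytes and megakaryocytes share, had 0.22 ± 0.37 (limma's adjusted p = 0.533). With normexp and median centring Fli1 was at 0.47, where the median of fully measured genes was 0.28. Sox17 and Sox18 had 0.03 ± 0.27 and 0.03 ± 0.25. Lyve1, a hyaluronan receptor of lymphatic vessels and of some macrophages, had ratios of 0.62, 0.51, 0.45 and 1.23, higher on 4 of 4 arrays. Its mean was 0.70 ± 0.36 (limma's adjusted p = 0.166). With normexp and median centring it was 0.57 (limma's adjusted p = 0.034), where 10.4% of all probes had an adjusted p under 0.05. The lymphatic regulator Prox1 had too few ratios to be tested, and Flt4, the receptor for VEGF-C and VEGF-D, had -0.02 ± 0.30 and was well above background on 3 arrays in the control channel.

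The extracts held tissue of many kinds, with all listed genes of neurons, astrocytes, leukocytes, skeletal muscle and epithelium, and the 7 of 8 bone genes that could be matched, measured as fully as the endothelial genes. The 10 neuron genes were below 0 by mean ratio in 10 of 10 cases, with medians of -2.27, -1.66, -0.68 and 0.50 on arrays 1 to 4. Their summed signal ranged from 23575 to 32306 in the DEP channel and from 24400 to 93938 in the control channel, and Snap25, a protein of synapses, had -0.67 ± 0.48 (limma's adjusted p = 0.217), but -0.16 with normexp and median centring. The 8 astrocyte genes had -2.37, -0.85, -0.17 and 0.05, with sums of 49394 to 61543 and 46230.2 to 241774 in the same order. The 10 endothelial genes, at -0.06, 0.09, -0.38 and -0.09, did not have their lowest median on the arrays where the neural lists did. By the brightest probe, Flt1, Esam and Cdh5 had their lowest ratio on array 1, at -1.05, -0.49 and -0.26, and the other members on array 3. Genes known from the blood-brain barrier had medians of -0.49, 0.21, 0.03 and 0.04, with Slc2a1, a glucose transporter, at 0.11 ± 0.15 (0.51 and an adjusted p of 0.032 from limma with normexp and median centring) and Mfsd2a, a lipid transporter that is also active in other tissues, at 0.50 ± 1.37. With normexp and median centring, 10.4% of all probes had an adjusted p under 0.05, as Slc2a1 did. The part of nervous tissue in the Cldn5 ratio was not tested.

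Pericytes and smooth muscle cells wrap the vessels, and their 10 genes had medians of -0.23, 0.33, -0.59 and -0.07 on arrays 1 to 4. As with the endothelial members, the lowest was on array 3 and the highest on array 2. Of the members, 10 were below 0 on array 3 and 7 on array 1, and of the pericyte and smooth muscle genes 9 of 10 on each. Their summed signal ranged from 37361 to 44072 in the DEP channel and from 30882 to 67129 in the control channel. The pericyte genes Pdgfrb and Rgs5 had mean ratios of 0.06 ± 0.36 and -0.09 ± 0.59 (limma's adjusted p = 0.861 and 0.864). The 11 platelet genes, which matter here because platelets also carry Vwf, Esam and Pecam1, had medians of -0.96, 0.02, 0.21 and 0.06, lowest on array 1. Of the members that platelets carry, Esam was also lowest on array 1, at -0.49, and Vwf and Pecam1 on array 3. Pf4 and Itga2b had mean ratios of -0.11 ± 0.66 and -0.31 ± 0.48, and Itga2b was at -0.09 without array 1 and at -0.04 with normexp and median centring. Leukocyte genes had -0.43, 0.05, 0.21 and 0.09, and Ptprc (CD45) 0.00 ± 0.48. What part these cells had in the ratios of the members was not tested.

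**Figure D5:**
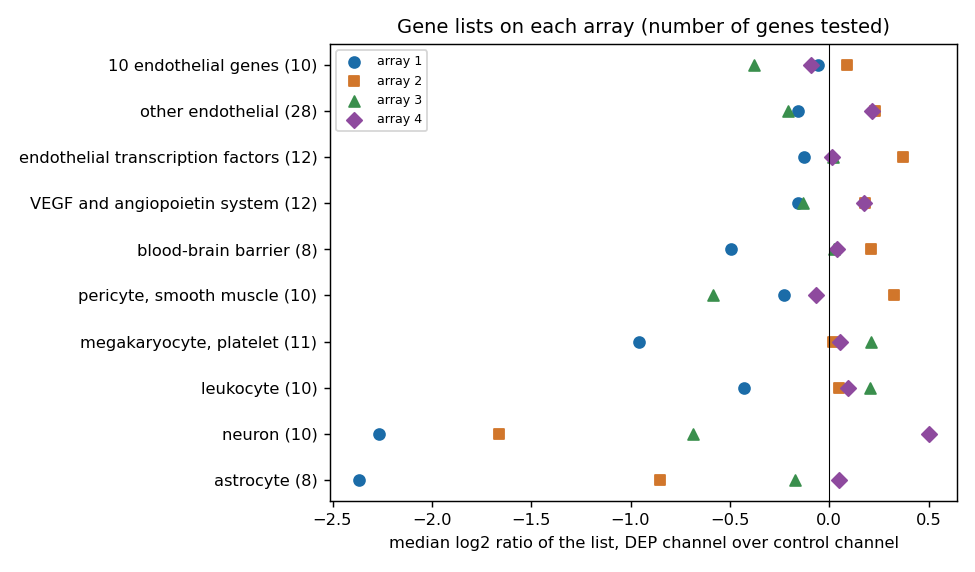
Median log2 ratio of 10 gene lists on each of the 4 arrays (horizontal axis, DEP channel over control channel, with the number of genes tested in brackets). The 10 endothelial genes range from -0.38 to 0.09 with array 3 lowest, as for pericyte and smooth muscle genes, whereas neuron and astrocyte genes are lowest on array 1, at -2.27 and -2.37.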

How the data were processed

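Extracts of mouse middle ears were compared on 4 two-colour 4x44K arrays of 1 slide with 1 scan time, so that no batch could be tested. The authors quantified the spots with Agilent Feature Extraction 10.10.1.1, as the submitters' processing notes state, and deposited a file per array. The deposited signals are intensities, and the processed intensity is background-subtracted and dye-normalized within the array. The log10 ratios they deposited give Cy5 relative to Cy3, with 0 where none was given. A deposited table of the same log10 ratios, rounded, served as an alternative. The methods state no test.

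Ratios were converted to log2. Control spots, flagged spots (164 to 274 per array) and spots without a ratio (6179 to 8558 of 43020) were left out, saturated spots would have been kept, and spots of a probe were averaged. Accessions were named with the RefSeq table of GRCm38.p6, which named 27655 probes and was used for names only, since the file headers give the array's build as mm9. Promoters came from a RefSeq table of GRCm38.p6. The brightest probe on average stood for its gene. The mean ratio of the 31577 probes with at least 3 ratios was tested with limma 3.58.1 in R 4.3.3 (lmFit and eBayes, prior degrees of freedom 1.98). Python 3.11.15 with pandas 2.3.3 and matplotlib 3.10.9 drew the rest. Fully measured means that on every array both channels were well above background, by the scanner software's own call. The share of probes above background was 65.5% to 69.0% in Cy5 and 59.3% to 68.0% in Cy3, and the number of arrays limits the precision.

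The members, the gene lists and the 25 other genes named whatever their values were chosen with earlier results of these data known. For DEP against control, the fit was also tested on simulated data. Among 31577 simulated probes 200 were changed, and 93 calls resulted, 5 false, with 60 of 100 recovered at a change of 2 on the log2 scale and 28 of 100 at a change of 1. Alternatives were normexp (offset 50, on median spot signals) with loess or median centring, the deposited ratio table, probes measured fully, flagged spots kept, an intensity trend, an ordinary test, the mean of a gene's probes, and each array left out. Centring on fully measured probes was added after seeing the data. The labels list treatments inconsistently by channel, and the source names were followed. The labels number the arrays and pair no samples beyond the array they share. Columns of values without a sample numbered 0. Measurements by qRT-PCR were not analysed, as the arrays alone were used here.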

Additional observations from a re-analysis of the deposited data

Results flagged for a closer look

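The log2 ratio of Fli1 was -0.34 on array 1, whereas arrays 2 to 4 had 0.35, 0.44 and 0.41, a gap larger than 4 samples give by chance at the 95% level. Of 40 values looked at in this way, 1 stood out, where chance gives about 1 in 20.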

How the results depend on the processing

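Every fit uses the ratio within an array, which pairs the 2 channels. No endothelial member had an adjusted p under 0.05 in any alternative run. The number with an unadjusted p under 0.05, which was 1, became 3 with normexp and loess, 2 with probes measured fully, with an intensity trend and with ratios centred on fully measured probes, 0 in the ordinary test and with the mean of a gene's probes, and 0 to 1 with 1 array left out, at 0 without array 3 or array 4. The share of all features tested at that p was between 15.4% and 18.8% in these settings and between 11.2% and 18.9% with 1 array left out. The median of -0.14 became 0.10 with normexp and median centring, where 7 members were above 0 in place of 3. The number above 0 was 1 with centring on fully measured probes, and 0 to 4 with 1 array left out, lowest without array 2. The median of the members stood below that of the fully measured genes by 0.18 with the deposited ratios and with normexp and median centring, by 0.17 with normexp and loess, and the difference was -0.21 to -0.07 with 1 array left out, smallest without array 3. Among the other vessel genes, 35 had an unadjusted p under 0.05 and 5 an adjusted one with normexp and median centring, in place of 6 and 0. In that setting, where 39429 probes were tested, 38.6% of all probes had an unadjusted and 10.4% (4110) an adjusted p under 0.05. The 5 genes were Cldn5 at -0.49, Cd34 at 0.53, Slc2a1 at 0.51, Lyve1 at 0.57 and Tm4sf1 at 0.55, the last named for this value. Angpt4 was at 0.29, Tie1 at -0.02, Eng at -0.07 and S1pr1 at -0.21 there.

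Directions turned for the genes below, among them Erg, Mfsd2a, Vwf and Esam with ratios of -0.40, 0.50, -0.33 and -0.21 in the deposited data, and the cause was not tested. The median of the fully measured genes was itself at 0.28 with normexp and median centring. Relative to that median, Pecam1 was at -0.19, Vwf at -0.14, Esam at -0.18 and Plvap at -0.04, below it as in the deposited data. With normexp and median centring, the ratio became 0.085 for Pecam1, 0.13 for Vwf, 0.094 for Esam, 0.24 for Plvap, 0.32 for Vegfa, 0.11 for Angpt2, 0.26 for Ptprb, 0.42 for Egfl7, 0.31 for Rgs5 and 0.58 for Pf4. With normexp and loess it became -0.083 for Emcn, -0.045 for Sox17, -0.014 for Sox18 and -0.064 for Ptprc. With the mean of a gene's probes it became 0.16 for Erg, -0.073 for Sox17, -0.0037 for Cd34 and -0.040 for Nos3. With centring on fully measured probes it became -0.0088 for Cdh5, -0.0095 for Emcn and -0.016 for Ptprc. With 1 array left out, the mean was -0.35 without array 1 for Flt1, -0.12 without array 1 for Esam, -0.28 without array 1 and -0.02 without array 3 for Plvap, and without array 3 it was -0.04 for Tie1 and -0.19 for Vwf. Where a direction turned with 1 array left out, the values over those runs alone ranged from -0.11 to 0.040 for Pecam1, -0.15 to 0.10 for Cdh5, -0.057 to 0.10 for Tek, -0.068 to 0.12 for Emcn, -0.11 to 0.061 for Vegfa, -0.035 to 0.41 for Angpt1, -0.31 to 0.0041 for Angpt2, -0.14 to 0.11 for Flt4, -0.10 to 0.089 for Sox17, -0.077 to 0.11 for Sox18, -0.16 to 0.055 for Egfl7, -0.0078 to 0.16 for Cd34, -0.063 to 0.29 for Nos3, -0.045 to 1.07 for Mfsd2a, -0.043 to 0.20 for Pdgfrb, -0.26 to 0.19 for Rgs5, -0.28 to 0.21 for Pf4 and -0.21 to 0.18 for Ptprc.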
